A study of Rattus norvegicus with 9 samples.

Results

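Solute carriers, the genes with an Slc symbol, were followed in a rat artery under 2 forms of hypertension. The array carried 227 genes whose platform symbol starts with Slc and a number, Slc8a1 not counted, and 117 of them were bright enough to describe. For each gene the probeset with the highest mean log2 signal over the 9 arrays was taken, and it was kept when its third-highest signal reached 44.3. The remaining 110 genes lay below that signal. Just inside the threshold was Slc29a2, a nucleoside carrier, with signals of 29.3, 42.1 and 43.8 on the WKY arrays, 43.0, 71.1 and 45.6 on the ACTH arrays and 37.3, 45.1 and 57.2 on the SHR arrays. Just outside was Slc16a1, a lactate and pyruvate carrier, with a third-highest signal of 44.0.

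RNA came from a primary side branch of the saphenous artery, a small artery of the hind limb, of male rats aged 16 weeks. The 3 groups were untreated Wistar-Kyoto rats (WKY, a normotensive strain), WKY rats given ACTH (adrenocorticotropic hormone, which drives the adrenal gland to make corticosterone) and untreated spontaneously hypertensive rats (SHR, an inbred strain). Per the labels ACTH was given at 0.1 mg/kg/day for 4 weeks from week 12, while the study's methods state a higher dose. Each group had 3 arrays, and each array held RNA pooled from 2 or 3 rats, so p-values measure the spread between pools. SHR and WKY differ in their whole genetic background as well as in blood pressure.

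Solute carriers are membrane proteins that move ions, sugars, amino acids, metals, nucleotides and vitamins across the plasma membrane or the membranes of organelles, by facilitated diffusion, exchange or cotransport with an ion gradient. Most members of the Slc25 family sit in the inner mitochondrial membrane and exchange metabolites, nucleotides and phosphate between matrix and cytosol. In arteries, carriers of sodium, potassium, calcium, chloride and bicarbonate take part in setting the volume, pH and calcium content of smooth muscle cells.

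Signals are given in the linear units of MAS5, the Affymetrix summary program, and differences between groups are log2 ratios with their standard errors. A gene was called when its p from limma, adjusted over all 9099 kept probesets, was under 0.05. The median signal of an array was 52.3 to 58.1. The GAPDH 3'/5' signal ratio, a measure of how much of the transcript was copied, averaged 5.41 ± 0.541 over the WKY arrays, 4.05 ± 0.436 over the ACTH arrays and 4.17 ± 0.860 over the SHR arrays (SD, n = 3 each). Arrays were scanned on 4 days: SHR 1 and SHR 2 with WKY 2, SHR 3 with the ACTH arrays, and WKY 1 and WKY 3 each alone. No day held both ACTH and untreated WKY arrays, so for ACTH against WKY treatment and scan day cannot be told apart within a day.

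The 6 smooth muscle markers were all kept, and their summed signal was 16440 to 19214 on WKY arrays, 16445 to 18229 on ACTH arrays and 17317 to 19175 on SHR arrays, with overlap and mostly from Myh11 and Tagln. Within this list Des, the intermediate filament desmin, differed in SHR by -1.45 from WKY and by -1.25 from ACTH, and both were called (adjusted p = 0.00708 and 0.0136). Markers of several other cell types differed between the groups. The 4 endothelial markers kept of 6 summed to 854 to 1120 on SHR arrays, below the 1213 to 1464 of ACTH and the 1414 to 1676 of WKY. This sum followed Vwf alone (-1.28 in SHR against WKY, adjusted p = 0.0116), while Kdr (0.87, with every SHR array above every WKY array), Pecam1 (0.54) and Nos3 (0.27) had positive differences and the list median was 0.40. For macrophages 4 of 6 markers were kept, summing to 1058 to 1553 on ACTH arrays, 757 to 1286 on SHR arrays and 375 to 935 on WKY arrays, and Ptprc was below the threshold. Most of this sum was Lyz2 (761 to 1202, 558 to 1017 and 228 to 708), and all 4 had their highest mean in ACTH. The 5 fibroblast markers summed to 7588 to 9219 on ACTH arrays, below the 10032 to 11643 of WKY and the 9850 to 12414 of SHR. This sum followed the collagens Col1a1 and Col3a1 (-1.91 and -0.76 in ACTH against WKY), while Dcn was higher in every ACTH array than in every other array (0.50 from WKY) and Pdgfra differed by 0.53. Fat markers kept were 3 of 7, summing to 491 to 721 on ACTH arrays, above the 297 to 452 of WKY and the 216 to 293 of SHR, while Lep, Plin1 and Ucp1 were below the threshold. This sum followed Cidea and Cfd, while Fabp4 had its highest mean in SHR. Of 7 skeletal muscle markers 1 was kept, Acta1, with 574, 420.1 and 436 on the WKY arrays, 668, 743 and 711 on the ACTH arrays and 901, 919 and 858 on the SHR arrays, and Ckm, Myh2, Myh4, Tnnt3 and Actn3 were below. Schwann cell markers kept (3 of 6) summed to 1361 to 2080, 1838 to 1928 and 1713 to 2075 on WKY, ACTH and SHR arrays, and red cell markers (2 of 6) to 199 to 309, 333 to 459 and 351 to 719. The Schwann cell sum was mostly Pmp22 and the red cell sum mostly Hbb. No neuron marker of 5 was kept. In pieces of whole artery a lower signal from fewer cells of a type and from less RNA per cell cannot be told apart.

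Few solute carriers were called in any pair of groups. In SHR against WKY 1 of the 117 genes was called (0.855%), Slc12a2, where 2.04% of all kept probesets were called. In ACTH against WKY 1 was called, Slc24a3, against 1.21% of all kept probesets. In SHR against ACTH 2 were called (1.71%), Slc24a3 and Slc40a1, against 3.40%. The F test over the 3 groups called 1 gene, Slc24a3, against 4.10%. At an unadjusted p under 0.05 the carriers numbered 20 (17.1%), 13 (11.1%) and 17 (14.5%) in the same order of pairs, near the 16.4%, 12.5% and 17.2% of all kept probesets. The arrays of both groups did not overlap for 24 carriers (20.5%), 23 (19.7%) and 32 (27.4%), where 19.4%, 20.5% and 24.9% of all kept probesets did not overlap. Their median log2 difference was -0.01 in SHR against WKY, 0.05 in ACTH against WKY and -0.05 in SHR against ACTH, beside 0.00, 0.02 and -0.02 over all kept probesets. Positive differences in ACTH against WKY were found for 75 of the 117 (64.1%), and for 54.1% of all kept probesets. After centring each array on its median these were 57 of 117 (48.7%) and 43.3%.

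**Figure D1:**
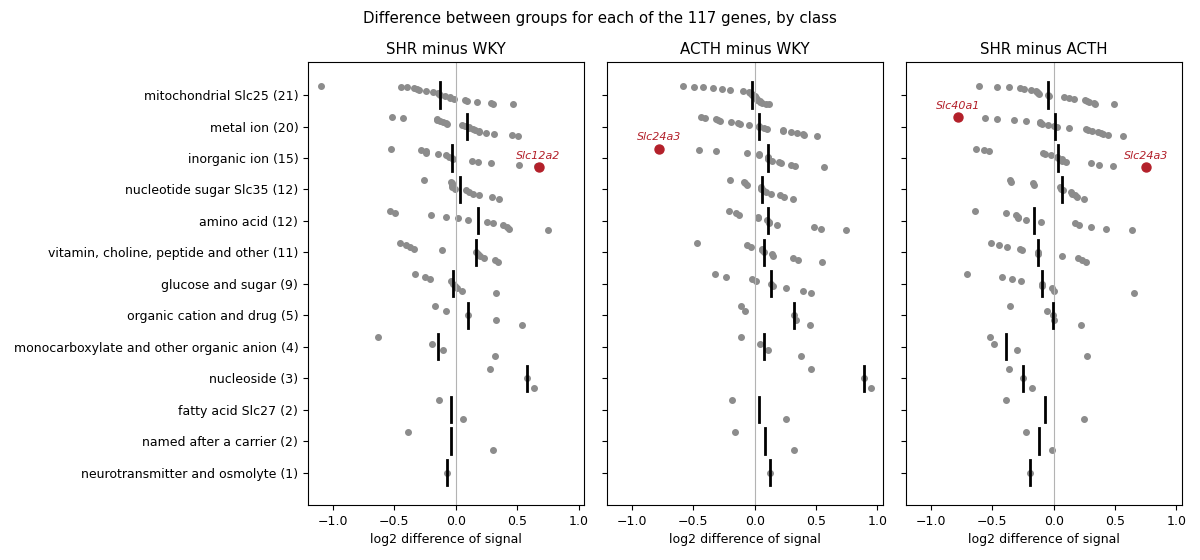
Log2 difference of signal between groups (x axis) for each of the 117 genes, by class (y axis, with the number of genes), in the 3 pairs of groups. Grey points are genes that were not called, red points are called genes, and the black bar is the median of the class. Slc12a2 stands at 0.67 in SHR minus WKY, Slc24a3 at -0.78 in ACTH minus WKY and 0.75 in SHR minus ACTH, and Slc40a1 at -0.78 in SHR minus ACTH.

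Slc12a2 is the sodium-potassium-chloride cotransporter NKCC1, which loads smooth muscle cells with chloride. Its signals were 183, 234 and 195 on the WKY arrays, 217, 256 and 226 on the ACTH arrays and 360.4, 303 and 310.3 on the SHR arrays. All SHR arrays lay above all ACTH and WKY arrays, while ACTH and WKY overlapped. The gene rose 1.60-fold in SHR against WKY (log2 0.67 ± 0.15, limma adjusted p = 0.0497). It differed by 0.48 ± 0.15 between SHR and ACTH (adjusted p = 0.125), which was not called, and by 0.20 ± 0.15 between ACTH and WKY (adjusted p = 0.671). Of the markers, Des, Vwf, Cidea, S100b and Col1a1 were lower in every SHR array than in every WKY array. Tagln, Kdr, Acta1, Hbb and Alas2 were higher in every one, and the part of these markers in this result was not tested. Within a scan day SHR 1 and SHR 2 exceeded WKY 2 by 0.50, a smaller difference that rests on 1 WKY array. The call was kept without WKY 2 (adjusted p = 0.0377) and lost without any other single array, with an adjusted p from 0.0718 without ACTH 2 to 0.149 without WKY 1.

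Slc24a3 is a potassium-dependent sodium-calcium exchanger (NCKX3) that extrudes calcium. Its signals were 375, 318 and 304 on the WKY arrays, 162, 218 and 205 on the ACTH arrays and 315, 333 and 328 on the SHR arrays. All ACTH arrays lay below all WKY and SHR arrays, and WKY and SHR overlapped. The gene fell 1.71-fold in ACTH against WKY (log2 -0.78 ± 0.15, adjusted p = 0.0423) and was 1.68-fold higher in SHR than in ACTH (0.75 ± 0.15, adjusted p = 0.0264). Between SHR and WKY it differed by -0.03, with a 95% interval of -0.37 to 0.32. Both called differences share the ACTH arrays. Col1a1 and Col3a1 were also lower in every ACTH array than in every WKY and SHR array. Dcn, Cfd and Cd14 were higher in every one, and the part of these markers was not tested. On the scan day shared with ACTH, SHR 3 exceeded the ACTH arrays by 0.76. Against WKY the call was kept without SHR 1 (adjusted p = 0.0463) and lost without any other single array (0.0650 without WKY 2 to 0.190 without ACTH 1). Against SHR it was lost without ACTH 1 (0.124), ACTH 3 (0.0828), SHR 2 (0.0902) or SHR 3 (0.0780).

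Slc40a1 is ferroportin, the only known cellular iron exporter of vertebrates. Its signals were 130.4, 117 and 116 on the WKY arrays, 144, 185 and 136 on the ACTH arrays and 109, 76.1 and 86.7 on the SHR arrays. Every ACTH array lay above every WKY array and every WKY array above every SHR array. It was 1.72-fold lower in SHR than in ACTH (log2 -0.78 ± 0.18, adjusted p = 0.0396). Neither group was called against WKY, with -0.43 ± 0.18 for SHR (adjusted p = 0.259) and 0.35 ± 0.18 for ACTH (adjusted p = 0.481). A dimmer probeset of the gene read 56.2, 56.9 and 64.6 on the WKY arrays, 59.6, 102 and 69.2 on the ACTH arrays and 56.8, 54.6 and 19.2 on the SHR arrays. It differed by -0.94 ± 0.37 between SHR and ACTH, the same way, and was not called (adjusted p = 0.223). Macrophages, which recycle iron, are rich in ferroportin. Of the 4 macrophage markers kept, Cd14 was called lower in SHR than in ACTH (-0.83, adjusted p = 0.0373), and Cd68 was lower on every array (-0.36) without being called. Lyz2 (-0.36) and Csf1r (-0.29) overlapped. In SHR against WKY, where Slc40a1 was lower, all 4 had positive differences (Lyz2 1.19, Csf1r 0.86, Cd68 0.75, Cd14 0.04). In ACTH against WKY, where Slc40a1 was higher, all 4 were positive too. None of their differences from WKY was called, and the part of these markers was not tested. Within the shared scan day SHR 3 lay -0.83 from the ACTH arrays. The call was kept without WKY 1 (adjusted p = 0.0480) or SHR 1 (0.0268), and lost without any other single array (0.0535 without WKY 2 to 0.134 without SHR 2).

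**Figure D2:**
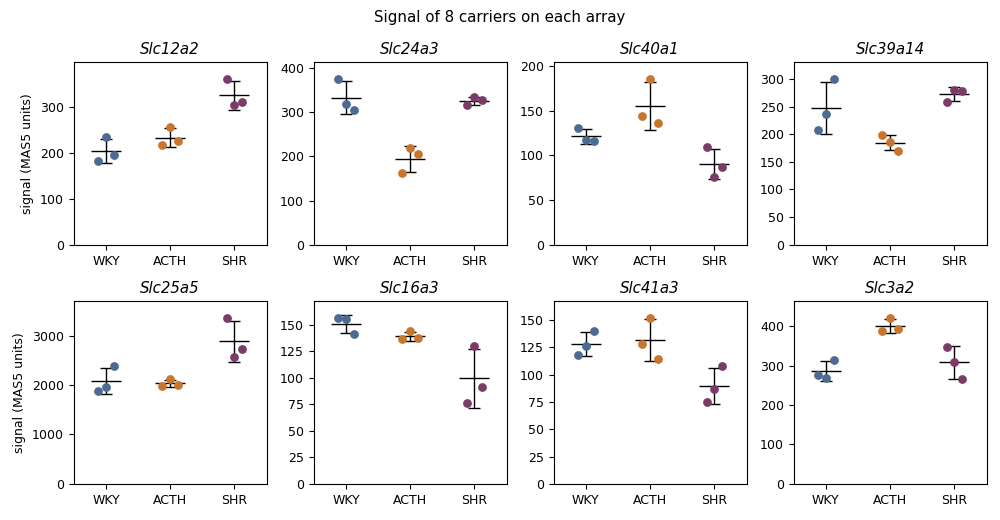
Signal in linear MAS5 units (y axis, from 0) of 8 carriers on each array of the 3 groups (x axis). Points are single arrays, and the bar and whiskers are the mean and SD of 3 arrays. SHR arrays lie highest for Slc12a2, ACTH arrays lowest for Slc24a3, and the groups of Slc40a1 do not overlap. The other genes, Slc39a14, Slc25a5, Slc16a3, Slc41a3 and Slc3a2, were not called.

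The 250 bases before the annotated start of the called genes are shown because these are the carriers whose RNA level was called, and to set the motif counts beside actual sequence. Sequences are from RefSeq (rat build GRCr8), 5′ to 3′ on the strand of the gene, and capitals mark the GC box CCGCCC on either strand. Slc12a2 lies at chr18:53546083-53546332 on the plus strand, Slc24a3 at chr3:153005168-153005417 on the plus strand and Slc40a1 at chr9:55543461-55543710 on the minus strand.
Slc12a2: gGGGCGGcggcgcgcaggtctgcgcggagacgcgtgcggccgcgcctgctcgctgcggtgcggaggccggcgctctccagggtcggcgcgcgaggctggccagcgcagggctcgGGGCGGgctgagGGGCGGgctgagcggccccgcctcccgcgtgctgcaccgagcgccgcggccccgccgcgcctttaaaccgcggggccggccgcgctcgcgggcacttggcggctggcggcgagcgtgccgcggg
Slc24a3: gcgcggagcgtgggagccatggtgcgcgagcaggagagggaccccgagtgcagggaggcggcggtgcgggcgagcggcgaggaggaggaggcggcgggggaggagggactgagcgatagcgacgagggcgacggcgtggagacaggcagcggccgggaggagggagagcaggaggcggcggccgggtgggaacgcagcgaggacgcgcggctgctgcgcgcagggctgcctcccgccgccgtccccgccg
Slc40a1: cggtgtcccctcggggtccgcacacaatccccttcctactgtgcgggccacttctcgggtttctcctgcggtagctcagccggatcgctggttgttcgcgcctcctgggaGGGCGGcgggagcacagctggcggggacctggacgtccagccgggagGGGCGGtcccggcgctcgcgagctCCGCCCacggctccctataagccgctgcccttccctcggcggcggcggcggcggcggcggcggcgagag
All 3 stretches were rich in G and C (83.2%, 78% and 74%). The first and the last held 3 GC boxes each, and that of Slc24a3 held none, with the annotated starts used as given and not checked against transcripts. Over the 109 windows found for 99 of the carrier genes, the GC box stood in 60.6%, and in 30.5% of 33469 windows of all genes. The E-box CACGTG stood in 11% of carrier windows and 5.59% of all. TGATGNAA, the element read by ATF4 with a C/EBP partner, stood in 2.75% and 3.4%, in Slc35a2, Slc49a4 and Slc7a1. The glucocorticoid response element stood in 0 carrier windows and 0.0179% of all. All motifs were searched on both strands, and a match says only that these letters are present. Carriers were kept by their signal in this artery and the windows of all genes were not, so the shares compare unlike sets.

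Inorganic ion carriers kept numbered 15 of 37 on the array. Besides Slc12a2 and Slc24a3 these were Slc12a3, Slc12a4, Slc12a7 and Slc12a9 of the cation-chloride cotransporters, the phosphate carriers Slc20a1 and Slc20a2, the bicarbonate carriers Slc4a3, Slc4a4 and Slc4a7, the sodium-calcium exchangers Slc8a2 and Slc8b1, and the sodium-proton exchangers Slc9a2 and Slc9a8. The class median was -0.03 in SHR against WKY, 0.11 in ACTH against WKY and 0.04 in SHR against ACTH. Groups did not overlap for 2, 5 and 5 of the 15 in the same pairs, where 19.4%, 20.5% and 24.9% of all kept probesets did not.

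Slc4a3, the chloride-bicarbonate exchanger AE3, read 280.1, 375 and 245 on the WKY arrays, 212, 219 and 217 on the ACTH arrays and 218, 292 and 298 on the SHR arrays. All ACTH arrays lay below all WKY arrays, by -0.45 ± 0.19, and the difference was not called (adjusted p = 0.351). Slc12a3, the thiazide-sensitive sodium-chloride cotransporter of the kidney, read 82.7, 87.9 and 94.8 on the WKY arrays, 104, 99.9 and 121 on the ACTH arrays and 55.4, 99.7 and 76.0 on the SHR arrays. SHR lay below ACTH by -0.53 ± 0.20 (adjusted p = 0.207), with SHR 2 close to ACTH 2. The phosphate carrier Slc20a2 was higher in every SHR array and every ACTH array than in every WKY array, with differences of 0.29 and 0.22, and neither was called. Its other kept probeset differed by 0.01 and 0.08, with overlap. Of the kinases that act on cation-chloride cotransporters, Wnk1, Stk39 and Oxsr1 differed from WKY by -0.29, -0.05 and -0.19 in SHR and were not called. Sgk1, a glucocorticoid-induced kinase that raises the surface level of several carriers, read 108, 137 and 164 on the WKY arrays, 98.2, 91.5 and 103 on the ACTH arrays and 157, 164 and 126 on the SHR arrays. ACTH lay below both other groups on every array, by -0.46 ± 0.18 from WKY (adjusted p = 0.313), and the difference was not called.

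Car3, a carbonic anhydrase abundant in fat and muscle, belongs to the bicarbonate partners, of which 3 of 7 were kept. It read 18.5, 86.4 and 27.6 on the WKY arrays, 241, 232 and 114 on the ACTH arrays and 157, 192 and 192 on the SHR arrays. All WKY arrays lay below all others, and Car3 was called higher in SHR (log2 2.34 ± 0.49, adjusted p = 0.0375) and in ACTH (2.39 ± 0.49, adjusted p = 0.0461). On WKY 1 and WKY 3 it was under the signal threshold, so the size of both differences is uncertain, and both share the WKY arrays. Of the 3 fat markers kept, Cfd (1.21 in SHR and 2.36 in ACTH against WKY) and Fabp4 (1.38 and 0.25) had positive differences too. Cidea went the other way in SHR (-1.90, limma adjusted p = 0.00202) and differed by 0.18 in ACTH. The muscle marker Acta1 differed by 0.92 and 0.58, and the part of these markers was not tested.

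Metal carriers kept numbered 20 of 24. The zinc exporters were Slc30a3, Slc30a4, Slc30a5, Slc30a6 and Slc30a9, and the ZIP importers Slc39a1, Slc39a3, Slc39a7, Slc39a8, Slc39a10, Slc39a11, Slc39a13 and Slc39a14. Slc11a2 and Slc40a1 carry iron, Slc31a1 and Slc31a2 copper, and Slc41a1, Slc41a2 and Slc41a3 magnesium. The class median was 0.09, 0.04 and 0.01 in SHR against WKY, ACTH against WKY and SHR against ACTH.

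Slc39a14, the importer ZIP14, which carries zinc, manganese and iron, read 207, 236 and 299.9 on the WKY arrays, 198, 186 and 170.3 on the ACTH arrays and 259, 280.3 and 279 on the SHR arrays. Every ACTH array lay below every array of the other groups. SHR exceeded ACTH by 0.56 ± 0.16 and was not called (adjusted p = 0.0913). Of the alternatives only centring each array on its median called this difference (0.63, adjusted p = 0.0445). ACTH differed from WKY by -0.41 ± 0.16 (adjusted p = 0.324). Slc41a3 read 118, 126 and 139.6 on the WKY arrays, 128, 152 and 114 on the ACTH arrays and 75.0, 86.5 and 108 on the SHR arrays. SHR lay below both other groups, by -0.52 ± 0.17 from WKY and -0.56 ± 0.17 from ACTH (adjusted p = 0.174 and 0.123).

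Of the zinc exporters of the Golgi and vesicles, Slc30a5 differed by 0.46 ± 0.19 and Slc30a4 by 0.51 ± 0.22 in SHR (adjusted p = 0.267 and 0.275). Slc30a6, the partner of Slc30a5 in a heterodimer, differed by 0.40 ± 0.15 in ACTH (adjusted p = 0.306), and every ACTH and SHR array lay above every WKY array. None of the 3 was called.

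Glucose and sugar carriers kept numbered 9 of 14: the facilitative carriers Slc2a1, Slc2a3, Slc2a4, Slc2a8 and Slc2a13, the glucose-6-phosphate carrier Slc37a4, and Slc45a3, Slc45a4 and Slc50a1. None was called in any pair. The class median was -0.03 in SHR against WKY, 0.13 in ACTH against WKY and -0.10 in SHR against ACTH.

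Slc2a4, the insulin-responsive carrier GLUT4, read 480.4, 354 and 419 on the WKY arrays, 419, 467 and 479.7 on the ACTH arrays and 314, 397 and 370.5 on the SHR arrays. Every SHR array lay below every ACTH array, by -0.34 ± 0.16 (adjusted p = 0.303). A dimmer probeset of Slc2a4 read 462, 384 and 384 on the WKY arrays, 312, 328 and 381 on the ACTH arrays and 191, 395 and 403 on the SHR arrays, differed by -0.12 between SHR and ACTH, and had the opposite sign in ACTH against WKY (-0.27 against 0.13). Slc2a13, a proton-coupled inositol carrier, read 136, 93.1 and 153 on the WKY arrays, 163, 176 and 154 on the ACTH arrays and 145, 94.6 and 134 on the SHR arrays. Every ACTH array exceeded every other array, by 0.39 ± 0.22 on average over WKY, and SHR lay -0.42 ± 0.22 from ACTH (adjusted p = 0.357). Its dimmer probeset had the opposite sign in SHR against ACTH (0.13). Slc2a3 and Slc37a4 were also lower in every SHR array than in every ACTH array, by -0.10 and -0.26. These 4 of 9 stand beside 13.3% of all kept probesets that were lower in SHR than in ACTH without overlap. The fat markers Cidea and Cfd were lower in every SHR array than in every ACTH array too (-2.08 and -1.14), while Fabp4, under the signal threshold on every ACTH array, was higher in every one (1.13), and their part was not tested.

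Slc2a1, the basal carrier GLUT1, read 98.0, 106 and 103 on the WKY arrays, 96.0, 96.6 and 111 on the ACTH arrays and 85.1, 111 and 105 on the SHR arrays. All groups overlapped, and the 95% intervals of its differences were -0.36 to 0.29 in SHR against WKY and -0.34 to 0.30 in ACTH against WKY. Slc2a8, an intracellular carrier, varied within groups, with 85.6, 96.7 and 105 on the WKY arrays, 52.2, 129.7 and 65.5 on the ACTH arrays and 101, 92.3 and 185 on the SHR arrays. Of the genes that govern hexose entry and trapping 5 of 7 were kept (Hk1, Txnip, Arrdc4, Tbc1d1 and Sort1), and none was called. Sort1, a sorting receptor of GLUT4 vesicles, was lower than in every WKY array in all SHR and ACTH arrays, by -0.37 ± 0.13 and -0.31 ± 0.13 (adjusted p = 0.200 and 0.365).

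**Figure D3:**
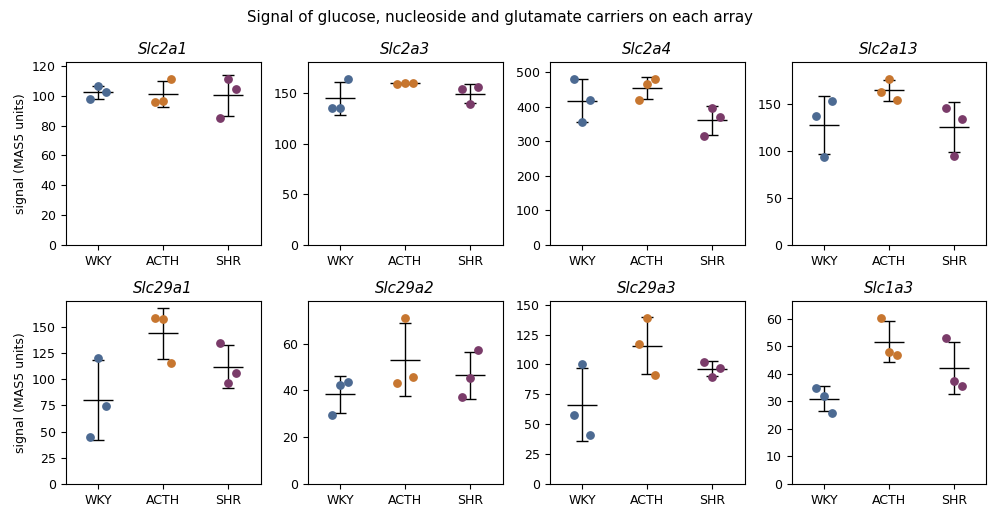
Signal in linear MAS5 units (y axis, from 0) of 4 glucose and inositol carriers, the 3 nucleoside carriers and the glutamate carrier Slc1a3 on each array of the 3 groups (x axis). Points are single arrays, and the bar and whiskers are the mean and SD of 3 arrays. No gene shown was called, Slc2a1 overlapped in all groups, and WKY 2 lay well above the other WKY arrays for Slc29a1 and Slc29a3.

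Amino acid carriers kept numbered 12 of 37: Slc1a3, Slc1a5, Slc3a1, Slc3a2, Slc6a6, Slc6a9, Slc6a20a, Slc7a1, Slc7a6, Slc7a7, Slc38a2 and Slc38a10. None was called. The class median was 0.18 in SHR against WKY, 0.11 in ACTH against WKY and -0.16 in SHR against ACTH.

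Slc3a2, the heavy chain (4F2hc) that carries large neutral and cationic amino acid carriers to the cell surface, read 277, 269 and 314 on the WKY arrays, 388, 422 and 393 on the ACTH arrays and 349, 309.6 and 267 on the SHR arrays. Every ACTH array exceeded every WKY and SHR array. The differences were 0.49 ± 0.14 from WKY and -0.39 ± 0.14 for SHR against ACTH (adjusted p = 0.171 and 0.200), and SHR differed from WKY by 0.10 (adjusted p = 0.772). Its light chains Slc7a6 and Slc7a7 differed in ACTH against WKY by 0.18 and 0.02.

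Slc1a3, the glutamate and aspartate carrier EAAT1, read 35.0, 32.1 and 25.9 on the WKY arrays, 60.3, 48.1 and 46.7 on the ACTH arrays and 53.0, 37.5 and 35.7 on the SHR arrays. All WKY arrays lay below all ACTH and SHR arrays, and all WKY values were under the signal threshold, so the gene was kept through the other groups. ACTH differed from WKY by 0.74 ± 0.19 (adjusted p = 0.126). Slc1a5, the neutral amino acid exchanger ASCT2 that brings in glutamine, read 237, 401 and 271 on the WKY arrays, 445, 497 and 359.7 on the ACTH arrays and 338, 339 and 382 on the SHR arrays. ACTH and WKY overlapped through WKY 2, and the difference was 0.54 ± 0.21 (adjusted p = 0.305). Slc3a1, a heavy chain known from kidney and gut, read 40.1, 35.8 and 36.6 on the WKY arrays, 38.7, 59.3 and 29.0 on the ACTH arrays and 87.4, 51.4 and 55.8 on the SHR arrays. It was likewise under the threshold in every WKY array, and SHR differed by 0.75 ± 0.27 (adjusted p = 0.203).

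Slc7a1, the cationic carrier CAT1 that brings in arginine, read 107, 131 and 107 on the WKY arrays, 126, 155 and 97.8 on the ACTH arrays and 164, 146 and 149 on the SHR arrays. Every SHR array exceeded every WKY array, by 0.42 ± 0.18 (adjusted p = 0.285), and a dimmer probeset differed by 0.04. Slc6a9, the glycine carrier GLYT1, was lower in every SHR array than in every WKY array, by -0.50 ± 0.21 (adjusted p = 0.272). Slc6a6, the taurine carrier, read 428, 383 and 329 on the WKY arrays, 333, 316 and 394 on the ACTH arrays and 555, 407 and 449 on the SHR arrays. SHR exceeded ACTH on every array, by 0.43 ± 0.17 (adjusted p = 0.223), and the dimmer probeset differed by 0.52. Slc38a2, the system A glutamine carrier, read 1022, 1077 and 965 on the WKY arrays, 1066, 965 and 1094 on the ACTH arrays and 1211, 829 and 903 on the SHR arrays, with all groups overlapping. Of the amino acid response genes 3 of 8 were kept (Atf4, Ddit3 and Eif2ak4), with differences from WKY of 0.26, -0.03 and -0.06 in SHR and 0.12, -0.31 and 0.02 in ACTH, and none was called.

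Mitochondrial Slc25 carriers kept numbered 21 of 30: Slc25a1, Slc25a3, Slc25a4, Slc25a5, Slc25a11, Slc25a12, Slc25a14, Slc25a15, Slc25a17, Slc25a20, Slc25a22, Slc25a23, Slc25a25, Slc25a29, Slc25a30, Slc25a36, Slc25a38, Slc25a39, Slc25a42, Slc25a44 and Slc25a45. Slc25a17 is a member of the family known from peroxisomes. None was called. The class median was -0.13 in SHR against WKY, -0.02 in ACTH against WKY and -0.05 in SHR against ACTH. Differences above 0 in SHR against WKY were found for 6 of the 21 (28.6%), the adenine nucleotide carriers among them, and for 49.4% of all kept probesets.

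Slc25a5, the adenine nucleotide translocase ANT2, which exchanges ADP for ATP, read 1889, 1971 and 2392 on the WKY arrays, 1985, 2121 and 2005 on the ACTH arrays and 3361, 2574 and 2725 on the SHR arrays. Every SHR array exceeded every WKY and ACTH array. The differences were 0.47 ± 0.15 from WKY and 0.49 ± 0.15 from ACTH (adjusted p = 0.171 and 0.122). Of the alternatives only a variance trend in the fit called the difference from ACTH (adjusted p = 0.0454). Slc25a4, the translocase ANT1 of muscle, read 2318, 2212 and 2318 on the WKY arrays, 2401, 2401 and 2260.5 on the ACTH arrays and 3135, 2785 and 2542 on the SHR arrays. SHR again exceeded both other groups on every array, by 0.30 ± 0.13 from WKY (adjusted p = 0.290). Both were higher within a scan day as well, at 0.58 and 0.42 for SHR 1 and SHR 2 over WKY 2 and 0.42 and 0.11 for SHR 3 over ACTH. The transcripts are close in sequence, and cross-hybridization between their probesets was not tested. Slc25a3, the phosphate carrier, differed by 0.17 ± 0.14 from WKY and overlapped.

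Slc25a1, the citrate carrier, read 190.3, 227 and 216 on the WKY arrays, 183, 174 and 167 on the ACTH arrays and 132, 182 and 169 on the SHR arrays. WKY lay above both other groups on every array, by -0.40 for SHR and -0.27 for ACTH (adjusted p = 0.244 and 0.548). Slc25a44, which carries branched-chain amino acids, read 77.9, 85.7 and 94.7 on the WKY arrays, 62.4, 73.5 and 67.9 on the ACTH arrays and 84.6, 88.4 and 82.2 on the SHR arrays. ACTH lay below both other groups on every array, by -0.34 ± 0.14 from WKY (adjusted p = 0.334). Slc25a23, an ATP-magnesium and phosphate carrier, had the only difference of more than 1 in size among the 117 genes, -1.10 ± 0.48 in SHR against WKY (adjusted p = 0.287), and was singled out after its values were seen. It read 142, 129.6 and 129 on the WKY arrays, 95.6, 78.7 and 113 on the ACTH arrays and 23.7, 76.3 and 133 on the SHR arrays. SHR 1 was the lowest array and SHR 3 lay within WKY.

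Among partners of the mitochondrial carriers 6 of 7 were kept. Timm22, the pore of the complex that inserts carriers into the inner membrane, read 119.7, 94.1 and 105 on the WKY arrays, 91.6, 95.5 and 105 on the ACTH arrays and 57.9, 60.5 and 75.8 on the SHR arrays. Every SHR array lay below all others, and Timm22 fell 1.65-fold in SHR against WKY (log2 -0.72 ± 0.16, adjusted p = 0.0466). The small chaperones Timm9 and Timm10 differed by -0.02 and 0.11, and the outer-membrane pores Vdac1, Vdac2 and Vdac3 by -0.01, 0.09 and 0.09, none called.

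The equilibrative nucleoside carriers Slc29a1, Slc29a2 and Slc29a3 were kept, of 6 in the class. Slc29a2 was under the threshold on every WKY array and was kept through the other groups. It differed from WKY by 0.28 in SHR and 0.46 in ACTH, and its other kept probeset by -0.16 and 0.04. Slc29a1 read 45.0, 121 and 74.9 on the WKY arrays, 159, 158 and 116 on the ACTH arrays and 135, 96.0 and 106 on the SHR arrays. Slc29a3, of lysosomes, read 57.6, 100.5 and 40.7 on the WKY arrays, 117, 139 and 91.4 on the ACTH arrays and 102, 89.7 and 97.0 on the SHR arrays. In both genes WKY 2 lay above the other WKY arrays and overlapped with ACTH. The differences in ACTH against WKY were 0.95 ± 0.31 and 0.89 ± 0.29 (adjusted p = 0.214 and 0.207). Without WKY 2 both were called (1.30 with adjusted p = 0.0460, and 1.24 with adjusted p = 0.0282). No other alternative called either gene. The dimmer probeset of Slc29a3 differed by 0.30 in ACTH and by -0.20 in SHR, against 0.64 in SHR for the brightest. Within a scan day the differences of Slc29a1, Slc29a2 and Slc29a3 were -0.08, -0.04 and -0.07 for SHR 1 and SHR 2 over WKY 2, of the opposite sign, and -0.43, 0.14 and -0.24 for SHR 3 over ACTH. All 4 macrophage markers kept were also highest among the WKY arrays on WKY 2. So were the Schwann cell markers Mbp, Pmp22 and S100b, the fat markers Fabp4 and Cfd, and Kdr, Hbb, Col1a1, Col3a1 and Pdgfra. The other markers kept were highest on WKY 1 or WKY 3, and the part of the markers was not tested.

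Monocarboxylate and other organic anion carriers kept were Slc16a3, Slc16a7, Slc10a3 and Slc17a5, of 14. Slc16a3, the lactate exporter MCT4, read 156, 155 and 141 on the WKY arrays, 136, 144 and 137 on the ACTH arrays and 76.6, 130.1 and 91.4 on the SHR arrays. Every SHR array lay below every WKY and ACTH array. The differences were -0.64 ± 0.18 from WKY and -0.52 ± 0.18 from ACTH (adjusted p = 0.124 and 0.178). Of the alternatives only leaving out SHR 2 called the first (-0.85, adjusted p = 0.0343), and none called the second. Within a scan day the differences were -0.64 and -0.61. Bsg, the glycoprotein that escorts lactate carriers to the surface, differed by 0.09 in SHR. Slc10a3 exceeded WKY on every SHR array, by 0.32 ± 0.14 (adjusted p = 0.286).

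Organic cation and drug carriers kept were Slc22a2, Slc22a3, Slc22a5, Slc22a17 and Slc22a18, of 17. Slc22a3, the extraneuronal monoamine carrier OCT3, read 326, 289.7 and 333 on the WKY arrays, 380.1, 391 and 408 on the ACTH arrays and 575, 324 and 519.5 on the SHR arrays. SHR and WKY overlapped through SHR 2, with a difference of 0.54 ± 0.20 (adjusted p = 0.225). Of the alternatives only leaving out SHR 2 called the gene (0.79, adjusted p = 0.0432). ACTH exceeded WKY on every array, by 0.32. Slc22a18 differed by 0.45 ± 0.21 in ACTH against WKY (adjusted p = 0.404). Slco1a4, an organic anion carrier named outside the Slc series, read 123, 169.8 and 153 on the WKY arrays, 157, 128 and 139.9 on the ACTH arrays and 53.2, 54.0 and 82.7 on the SHR arrays. Every SHR array lay below all others, and it fell 2.38-fold in SHR against WKY (log2 -1.25 ± 0.20, adjusted p = 0.00958) and was 2.28-fold lower than in ACTH (-1.19 ± 0.20, adjusted p = 0.0111). It is known from endothelium of the blood-brain barrier, and of the 4 endothelial markers kept Vwf was also lowest on every SHR array while Pecam1, Kdr and Nos3 had their highest means in SHR. Their part was not tested. It was 1 of 11 kept carriers of 15 listed under other symbols, and the others were not called. Over all roles 33 of 52 listed partners were kept, and 3 were called in SHR against WKY, 1 in ACTH against WKY and 1 in SHR against ACTH, beside 2.04%, 1.21% and 3.40% of all kept probesets. The partners were listed with earlier results of these data known. The study itself lists Timm22 and Car3 (as Ca3) among its changed genes, so these counts are descriptions and no independent support.

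The smaller classes held no called gene. The fatty acid carriers Slc27a1 and Slc27a4 were kept of 5. Slc27a1 read 196, 215 and 175 on the WKY arrays, 254, 228 and 218 on the ACTH arrays and 198, 161 and 175 on the SHR arrays, and every ACTH array exceeded every other array, with a difference of -0.39 ± 0.14 in SHR against ACTH (adjusted p = 0.195). Beside it, Cfd was higher in every ACTH array than in every other array, Cidea overlapped between ACTH and WKY, and Fabp4 had its lowest mean in ACTH. Slc27a4 differed by 0.24 ± 0.17. The creatine carrier Slc6a8 (1 of 7 neurotransmitter and osmolyte carriers) differed by -0.19 ± 0.16 between SHR and ACTH.

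All 12 genes of the Slc35 family on the array were kept, classed by symbol alone as nucleotide sugar carriers: Slc35a1, Slc35a2, Slc35a4, Slc35b1, Slc35b2, Slc35b4, Slc35c1, Slc35e1, Slc35e3, Slc35e4, Slc35f5 and Slc35f6. Their differences lay between -0.35 and 0.35 in all 3 pairs, and the class medians were 0.04, 0.06 and 0.07. Slc35a1, which carries CMP-sialic acid into the Golgi, differed by 0.35 ± 0.17 in SHR against WKY (adjusted p = 0.347), and Slc35f6 by -0.35 ± 0.18 in SHR against ACTH (adjusted p = 0.347).

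Vitamin, choline, peptide and other carriers kept were Slc5a6, Slc14a2, Slc15a4, Slc23a2, Slc33a1, Slc44a1, Slc44a2, Slc48a1, Slc49a4, Slc52a2 and Slc66a2, of 22. Slc23a2, which carries vitamin C, read 102, 76.9 and 101 on the WKY arrays, 112, 136 and 162 on the ACTH arrays and 89.5, 145 and 85.4 on the SHR arrays. ACTH exceeded WKY on every array, by 0.54 ± 0.23 (adjusted p = 0.364). Slc44a2, a choline carrier-like protein, read 738, 932 and 601 on the WKY arrays, 608, 489 and 519 on the ACTH arrays and 491, 616 and 591 on the SHR arrays. WKY was higher on average, with ACTH at -0.47 ± 0.18 and SHR at -0.40 from it, and ACTH 1 lay above WKY 3. Slc5a6, which carries biotin and pantothenate, was lower in every SHR array than in every WKY array and differed by -0.45 ± 0.17 from ACTH (adjusted p = 0.215). Slc48a1, a heme carrier of lysosomes, was lower in every SHR array than in all others, by -0.45 ± 0.24 from WKY (adjusted p = 0.379). Slc7a6os and Slc4a1ap, counted by their symbols, are named after a carrier and are not carriers. Slc7a6os differed by 0.32 ± 0.14 in ACTH (adjusted p = 0.375) and Slc4a1ap by -0.39 ± 0.16 in SHR (adjusted p = 0.254).

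Precision was limited by 3 arrays per group. The 95% interval of a single difference reached 0.41 to either side at the median over genes and pairs, and from 0.28 to 1.35 over all. All 9 arrays reached the threshold for 101 of the 117 genes. In 5 genes (Slc1a3, Slc3a1, Slc22a2, Slc29a2 and Slc45a3) every WKY array was below it, so these were kept only through the other groups. For 14 carriers 15 further probesets were kept, and their differences had the sign of the brightest probeset in 10, 11 and 10 of 15 in SHR against WKY, ACTH against WKY and SHR against ACTH.

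**Figure D4:**
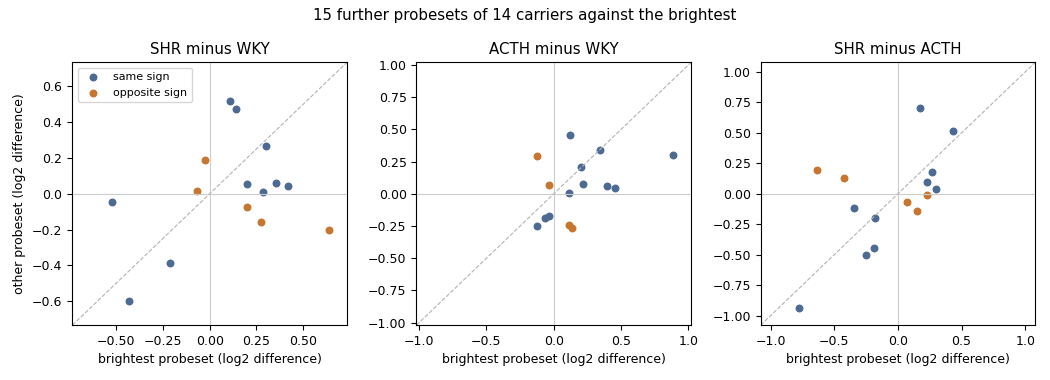
Log2 difference between groups read by the brightest probeset of a gene (x axis) and by another kept probeset of the same gene (y axis), for 15 further probesets of 14 carriers in the 3 pairs of groups. Blue points have the same sign on both axes and orange points opposite signs, and the dashed line marks equal values. Signs were opposite for 5, 4 and 5 of 15.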

How the data were processed

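RNA of 9 pooled artery samples, 3 per group, was amplified over 2 cycles and hybridized to RAE230A arrays. The authors summarised the scans with MAS5 and deposited 1 linear intensity per probeset and array, without detection calls; a mean trimmed by 2% at each end was about 150 on every array. Gene symbols were those of the platform annotation, and all 227 Slc identifiers were found in the RefSeq table. Of 15923 probesets, 57 controls were left out, and 9099 of 15866 were kept at a third-highest signal of 44.3 or more. Another 2 kept probesets, annotated more than once as an Slc gene, were left out of the members.

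Log2 intensities were fitted to the 3 groups with limma 3.58.1 in R 4.3.3 (lmFit, eBayes without trend, 6 residual and 4.44 prior degrees of freedom). Tests were two-sided and their p-values were adjusted after Benjamini and Hochberg over every kept probeset, and 0.05 was the threshold. The fit was tested on simulated data with independent noise and no effect of scan day, so that test cannot speak to such effects. Medians of classes are descriptions. The members, classes, partner and marker lists were chosen with earlier results of these data known.

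Named members were those called, the 12 with the lowest p in each pair of groups, the 2 with the lowest F test p in each class, those in the study's tables and those nearest the signal threshold. Called partners and the 2 with the lowest p in each pair were named with them, and other genes were named as examples of their class. Alternatives changed the scaling (median centring, quantile normalization, 16 added to each signal), the probesets (no filter, or a mean signal of 100 or more), the fit (variance trend, GAPDH ratio as covariate, a block for scan day or replicate number, one pair of groups at a time, or the study's own tests), or left out 1 array. Values within a scan day were added after seeing the data. The number of arrays limits the precision.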

Additional observations from a re-analysis of the deposited data

Results flagged for a closer look

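Among the 110 solute carriers below the signal threshold, which enter no comparison above, Slc22a23 had a difference that passed the test when all 15866 non-control probesets were fitted. Slc22a23 is an orphan member of the organic ion carrier family. Its signals were 9.84, 9.58 and 11.7 in WKY, 20.0, 27.8 and 16.9 in ACTH and 26.1, 26.0 and 24.7 in SHR. All WKY arrays lay below all others, and SHR differed from WKY by 1.31 ± 0.20 on the log2 scale (limma adjusted p = 0.0490). All 9 values were under 44.3.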

How the results depend on the processing

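The 4 calls of 3 carriers were often lost under the alternatives. Their direction was kept in every one, which in many was fixed beforehand. The probeset filters, the variance trend, the replicate block, single pairs and the methods' tests leave a difference unchanged. Leaving out 1 array cannot reverse groups that do not overlap. Over the alternatives the difference was 0.50 to 0.78 for Slc12a2 in SHR against WKY, -0.86 to -0.65 for Slc24a3 in ACTH against WKY, 0.62 to 0.84 for Slc24a3 in SHR against ACTH and -0.92 to -0.64 for Slc40a1 in SHR against ACTH. Called carriers numbered 1 in SHR against WKY, 1 in ACTH against WKY, 2 in SHR against ACTH and 1 by the F test. By limma there were 0 in all 4 tests without the filter on low signals and with a block for scan day or replicate number. The shares of all probesets called fell too, in the same order of tests. They were 0.454%, 0%, 0.328% and 0.397% without the filter and 0.286%, 0%, 0.385% and 0.451% with the scan day block. With the replicate block they were 1.74%, 1.07%, 2.87% and 3.42%. The methods' tests called 0 after Benjamini-Hochberg adjustment (15, 12, 18 and 15 carriers before it), beside 0.989%, 0.055%, 1.31% and 1.29% of all probesets. Adding the GAPDH ratio as a covariate left 0, 0, 1 and 0, beside 0.407%, 0%, 3.15% and 2.02% of all probesets. The differences were then 0.74 for Slc12a2, -0.71 and 0.75 for Slc24a3 and -0.78 for Slc40a1. With the groups of a pair alone 0, 0 and 1 were called, beside 1.07%, 0.868% and 3.58%. Median centring left 0 in SHR against WKY (1.79% of all probesets), and quantile normalization 1 in SHR against ACTH (3.53%). The F test called 3 of 73 carriers at a mean signal of at least 100, beside 5.02% of all probesets. It called 2 with 16 added to the signal (4.96%) and 3 with a variance trend (5.37%). Leaving out 1 array gave 0 to 2 in each pair and 0 to 4 by the F test. The shares of all probesets were then 1.12% to 2.35% in SHR against WKY and 0.363% to 1.46% in ACTH against WKY. They were 1.22% to 3.56% in SHR against ACTH and 1.77% to 4.29% by the F test. Wherever limma called 0 in a pair, 8 to 20 carriers passed at an unadjusted p under 0.05, and 9 to 16 where the F test called 0. The share of all probesets passing that threshold was not counted for the alternatives. In the main fit it was 16.4%, 12.5% and 17.2% in the 3 pairs and 18.9% by the F test. Under the replicate block, the adjusted p was 0.0858 for Slc12a2, 0.0831 and 0.0552 for Slc24a3 against WKY and SHR, and 0.0648 for Slc40a1. Equal replicate numbers did not pair the arrays (correlations of deviations from -0.067 to 0.129), and the block left 0 calls. The scan day block has 3 residual degrees of freedom and compares SHR with WKY through WKY 2. It compares ACTH with WKY only indirectly, through SHR, and rests there on WKY 2 and SHR 3, since no day held both groups. In its fit the amino acid median was -0.041 in SHR against WKY and -0.046 in ACTH against WKY, the glucose median 0.020 in ACTH against WKY and -0.19 in SHR against ACTH, and the Slc25 median -0.19, -0.26 and 0.064 in SHR against WKY, ACTH against WKY and SHR against ACTH. At a mean signal of at least 100 the Slc25 median was -0.045 in SHR against WKY, the glucose median 0.012 in ACTH against WKY and the amino acid median 0.034 in SHR against ACTH. With the GAPDH covariate the Slc25 median was -0.047 in SHR against WKY and -0.088 in ACTH against WKY, and with median centring -0.084 in ACTH against WKY and 0.020 in SHR against ACTH. Leaving out 1 array moved the Slc25 median from -0.21 to -0.036 in SHR against WKY, from -0.093 to -0.0075 in ACTH against WKY and from -0.10 to 0.037 in SHR against ACTH. It moved the glucose median from -0.11 to 0.033 in SHR against WKY and from -0.26 to -0.095 in SHR against ACTH, and in SHR against ACTH also the amino acid median from -0.16 to 0.0095 and the inorganic ion median from -0.036 to 0.17. In SHR against WKY and ACTH against WKY the amino acid median lay between 0.090 (without WKY 1) and 0.22 and between 0.020 (without ACTH 2) and 0.14, and the inorganic ion median between -0.13 and 0.074 and between 0.031 and 0.17. Single genes changed sign in 3 cases, none of them called: Slc3a2 in SHR against WKY with the GAPDH covariate (-0.093), and with the scan day block Slc1a5 in ACTH against WKY (-0.075) and Slc6a8 in SHR against ACTH (0.091). The causes were not tested.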

Other observations

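Slc15a3, a peptide and histidine carrier of lysosomes that is rich in macrophages, was also below the signal threshold and appears in the study's tables. Over all non-control probesets its difference in SHR against WKY was 0.75 ± 0.20 (limma adjusted p = 0.264), which was not called.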
